A study of Homo sapiens with 9 samples.

Results

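The SR splicing factors are RNA-binding proteins rich in arginine and serine that select splice sites, and several of them also accompany mRNAs out of the nucleus. They keep their own amounts in check by splicing: many of their genes can include a poison exon, which carries a premature stop codon and sends the mRNA to nonsense-mediated decay (NMD), or can retain an intron, which usually holds the RNA in the nucleus. The 10 genes described here were SRSF1, SRSF2, SRSF3, SRSF4, SRSF5, SRSF6, SRSF7, SRSF10, SRSF11 and TRA2B, chosen by name out of 56349 genes with at least 1 matched transcript. They have 108 transcripts in the deposited tables, of which 40 are annotated as protein-coding, 29 as retained-intron, 21 as NMD and 18 as having no defined coding sequence. Every transcript of the 10 genes was used, and the genes were described by their summed level and by how that level was divided among these classes.

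The libraries came from HEK293, a human embryonic kidney line (the study's methods name 293T, its derivative carrying the SV40 large T antigen), given either a control siRNA or a mix that targets WTAP together with KIAA1429 (VIRMA), which are subunits of the m6A methylase complex, and split into nuclear and cytoplasmic fractions. There were 3 nuclear libraries of control cells, 1 cytoplasmic library of control cells, 3 nuclear libraries of RNAi cells and 2 cytoplasmic libraries of RNAi cells. The labels do not say whether the replicates were separate cultures, so the tests measure the spread between these libraries, which may be technical. Every comparison with the control cytoplasm rests on its single library, which is assumed in the fits to vary like the others. The comparisons ask whether lowering WTAP and KIAA1429 changed the amount, the location or the isoform makeup of the mRNAs.

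The libraries held 11627403 to 19036141 estimated counts, and the control cytoplasm was the deepest. The 10 genes took 13624 to 25846 of these counts per library. WTAP had 37.5 normalised CPM, a count scaled to the size of its library, in the control cytoplasm against 10.8 and 11.9 after RNAi, and 23.1 to 27.6 in control nuclei against 12.3 to 15.6 after RNAi. VIRMA had 17.4 CPM in the control cytoplasm against 4.09 and 4.22 after RNAi, and 13.2 to 19.9 in control nuclei against 5.53 to 9.19. It fell by 2.07 on the log2 scale in the cytoplasm and by 1.08 in the nucleus (edgeR, FDR 0.00268 and 0.0314). MALAT1, a nuclear noncoding RNA, was at 5.47 to 13.8 CPM in the 3 cytoplasmic libraries and 88.3 to 199 CPM in the 6 nuclear libraries. Mitochondrial RNAs, which belong to the cytoplasm, nevertheless took 18.5 to 30.7% of the counts in the nuclear libraries and 14.8 to 19.8% in the cytoplasmic libraries, so the nuclear fraction was not free of them, and the part of such carry-over in the results below was not tested. PAX2 and NEFM, which HEK293 cells express, were present in all 9 libraries, whereas PTPRC and ALB, markers of leukocytes and hepatocytes, stayed at or below 0.22 CPM. A CPM is a share of a library, so a lower share and less RNA per cell cannot be told apart.

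The stop codons of the leading NMD transcripts are shown first because they mark where translation of each isoform would end. SRSF1-206 and SRSF10-215 also lead their class and are not printed. In SRSF3, SRSF4, SRSF6, SRSF11 and TRA2B the stop lay in an exon that does not overlap any exon of the canonical coding transcript. In SRSF5 and SRSF7 it lay in a longer form of a coding exon, 1030 and 1127 nucleotides in length. In SRSF2-208 the stop was that of the full-length protein and the last splice junction lay 105 nucleotides after it. Each line gives the sense strand of the spliced transcript (GRCh37) from 5′ to 3′, with the stop codon in capitals.
SRSF2-208: ggagcggtgtcctctTAAgaaaatgatgta
SRSF3-203: cttctcaccaccctcTGAatctgcattagc
SRSF4-205: ttcttacaaggaaaaTGAgtgaatgtggga
SRSF5-211: gcctgtgggttatccTAAtcgttgtcttgg
SRSF6-202: gcagccttttgccatTAGacgcagggtgat
SRSF7-208: agcaggtatttatttTAAtaaaggaatggt
SRSF11-212: acagcttttgaaagtTGAgagcacacccct
TRA2B-205: aagctcaggaataagTGAagctgaaatttg

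The SRSF3 stop lies on chromosome 6 at 36567629 to 36567631, in exon 4 of 7, a 456-nucleotide exon, after 124 codons where the full protein has 164. The SRSF6 stop lies on chromosome 20 at 42087942 to 42087944, in a 268-nucleotide exon, after 135 of 344 codons. The SRSF11 stop lies on chromosome 1 at 70697589 to 70697591, in a 117-nucleotide exon, after 128 codons where the canonical protein has 484. The TRA2B stop lies on chromosome 3 at 185649560 to 185649562, in a 276-nucleotide exon 2, after 38 of 288 codons. In these 4 transcripts the last splice junction followed the stop by 270 to 1015 nucleotides, a layout that the NMD machinery is known to recognise.

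The retained-intron transcripts had a different build. None of the 9 leading retained-intron transcripts held a complete coding intron: they began or ended inside one, with between 46 and 2575 nucleotides in their largest intronic segment. SRSF6 has no transcript of this class. In TRA2B-214 the transcript ran through 2339 intronic nucleotides on chromosome 3 (185644523 to 185646861) into the next coding exon. Its sequence at that border is shown in the sense direction, with the AG of the intron's acceptor in capitals, because a processed mRNA lacks the bases up to and including this AG.
TRA2B-214: cttttaacatctacgtgtAGgaatcccgtt
In SRSF3-201 and SRSF11-214 the intronic segment contained the whole poison exon, 456 of 456 and 117 of 117 nucleotides, so that reads from this exon fit both the retained-intron and the NMD class. Reads in such segments cannot tell a stable retained intron from unspliced precursor RNA. Only the largest intronic segment of each leading retained-intron transcript was compared with the exon that holds the stop. The leading transcript held 34.9% of the retained-intron TPM in SRSF5 and 50.5% in TRA2B. Overlap with the other retained-intron transcripts was not tested.

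After WTAP/KIAA1429 RNAi the cytoplasmic levels of SRSF11, SRSF10 and SRSF6 fell, and no member passed the test in the nucleus. In the cytoplasm 3 of 10 members were lower and 0 were higher, where over all 16181 genes tested 14.2% were called lower and 10.4% higher (called meaning a log2 fold change beyond 0.5 and an FDR under 0.1, edgeR quasi-likelihood test). The median log2 fold change was -0.26 over the members and 0.01 over all genes. In the nucleus 0 of 10 were called, against 4.89% of all genes in either direction, and 1 member had an unadjusted p under 0.05. DESeq2 also called 0 members in the nucleus.

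**Figure D1:**
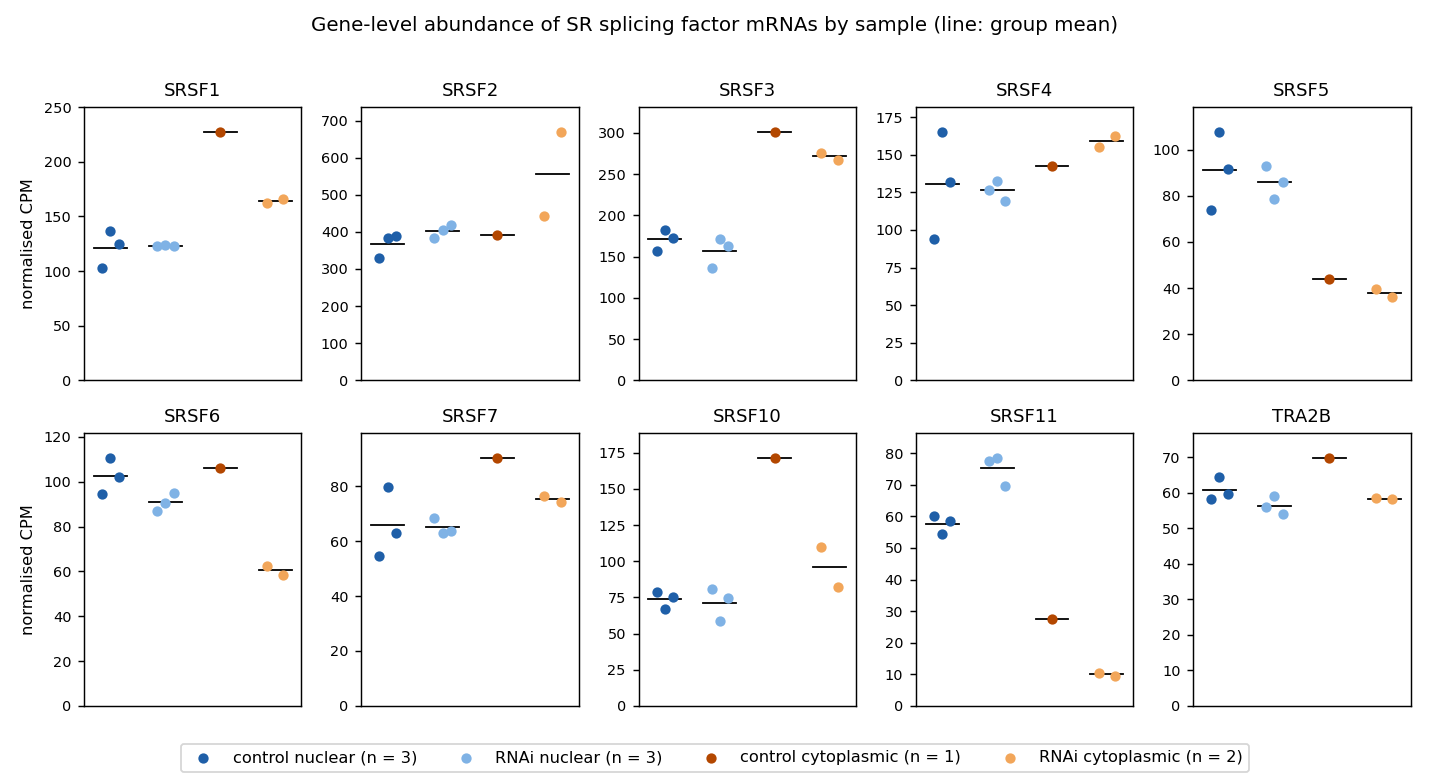
Normalised CPM of each SR splicing factor gene (vertical axes, linear and starting at 0) in every library, with points for libraries and lines for group means. SRSF6, SRSF10 and SRSF11 are lower in both RNAi cytoplasmic libraries than in the control cytoplasmic library, while their nuclear levels overlap between control and RNAi except for SRSF11.

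SRSF11 encodes an SR-related protein that associates with the U2AF splice-site factor, and its gene lies on chromosome 1 (70671365 to 70718735, plus strand). Its level was 27.7 CPM in the control cytoplasm and 10.5 and 9.41 CPM in the RNAi cytoplasm. In the nucleus it was 60.2, 54.5 and 58.4 CPM in control cells and 77.6, 78.6 and 69.7 CPM in RNAi cells. The nuclear groups did not overlap, the RNAi libraries being higher, whereas both cytoplasmic RNAi libraries were below the control. The cytoplasmic level after RNAi was 0.361 times the control level (log2 fold change -1.47, SE 0.15, edgeR FDR 0.000655). The nuclear log2 fold change of 0.38 (SE 0.09, edgeR FDR 0.0544) was below the fold limit. Both sides added up to a nuclear/cytoplasmic ratio that was 3.61 times higher after RNAi (log2 1.85, SE 0.18, edgeR FDR 0.000831).

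The protein-coding transcripts of SRSF11 held 11.9 TPM, a level scaled to transcript length, in the control cytoplasm and 3.60 and 1.84 TPM after RNAi. In the nucleus they stayed between 3.75 and 6.53 TPM in control cells and between 4.57 and 5.55 TPM in RNAi cells. The coding levels thus overlapped between the nuclear groups. Transcripts without a defined coding sequence, led by SRSF11-209, were at 17.7 to 23.9 TPM in control nuclei and at 30.9 to 35.9 TPM in RNAi nuclei. These ranges did not overlap, and the class was not tested by itself.

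SRSF10 encodes a factor known as a splicing repressor when dephosphorylated, in mitosis and heat shock, and lies on chromosome 1 (24290837 to 24307417, minus strand). Its level was 172 CPM in the control cytoplasm and 110 and 82.1 CPM in the RNAi cytoplasm. Its nuclear level was 78.7, 66.7 and 75.6 CPM in control cells and 80.9, 58.4 and 74.4 CPM in RNAi cells, so the nuclear groups overlapped. The cytoplasmic level after RNAi was 0.561 times the control level (log2 fold change -0.83, SE 0.21, edgeR FDR 0.0195). Its protein-coding transcripts were at 175 TPM in the control cytoplasm and at 94.9 and 60.5 TPM after RNAi. The nuclear/cytoplasmic ratio was 1.73 times higher after RNAi (log2 0.79, SE 0.25, edgeR FDR 0.0715). This last call was lost without any 1 of the following libraries: control nucleus 3 (FDR 0.115), RNAi cytoplasm 2 (FDR 0.168), RNAi nucleus 1 (FDR 0.141) or RNAi nucleus 3 (FDR 0.143). Over all alternatives its FDR ran from 0.00337 to 0.168.

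SRSF6, a classical SR protein that binds exonic enhancers, lies on chromosome 20 (42086533 to 42094686, plus strand). It was at 106 CPM in the control cytoplasm and at 62.6 and 58.3 CPM after RNAi. In nuclei it was at 94.5, 111 and 102 CPM in control cells and 87.0, 90.7 and 95.1 CPM in RNAi cells, with overlap at the edge of the groups. The cytoplasmic level after RNAi was 0.57 times the control level (log2 fold change -0.81, SE 0.13, edgeR FDR 0.00371), and the nuclear/cytoplasmic ratio was 1.55 times higher (log2 0.64, SE 0.16, edgeR FDR 0.0336). Both its isoforms were lower in the cytoplasm after RNAi, the coding SRSF6-201 at 9.03 TPM in the control against 4.85 and 5.60 TPM, and the poison isoform SRSF6-202 at 45.6 TPM against 23.8 and 14.9 TPM.

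Counted over the members, the nuclear/cytoplasmic ratio rose after RNAi for 3 of 10 and fell for 0, against 10.4% of all genes called higher and 7.87% called lower. The median change was 0.20 over the members and -0.05 over all genes. These ratios use the same cytoplasmic libraries as the cytoplasmic comparison and are not separate evidence. The remaining 7 members had cytoplasmic log2 fold changes between -0.47 and 0.51, none called.

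SRSF1, the founding member of the family, came closest to the limits among these 7. It was at 227 CPM in the control cytoplasm and 162 and 166 CPM in the RNAi cytoplasm, while its nuclear levels were 103 to 137 CPM in control cells and 123 to 124 CPM in RNAi cells. Its cytoplasmic log2 fold change was -0.47 (SE 0.15, edgeR FDR 0.0539), just inside the fold limit of 0.5, and its ratio change was 0.49 (SE 0.19, edgeR FDR 0.116). SRSF2, which binds exonic enhancers and has a role in transcription elongation, had the only cytoplasmic value above 0.5: it was at 391 CPM in the control cytoplasm against 443 and 670 CPM, and these 2 RNAi libraries were themselves far apart (log2 0.51, SE 0.21, edgeR FDR 0.121). Without RNAi cytoplasm 1 it was called (log2 0.77, edgeR FDR 0.0171), and over all alternatives the FDR ran from 0.0168 to 0.99.

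**Figure D2:**
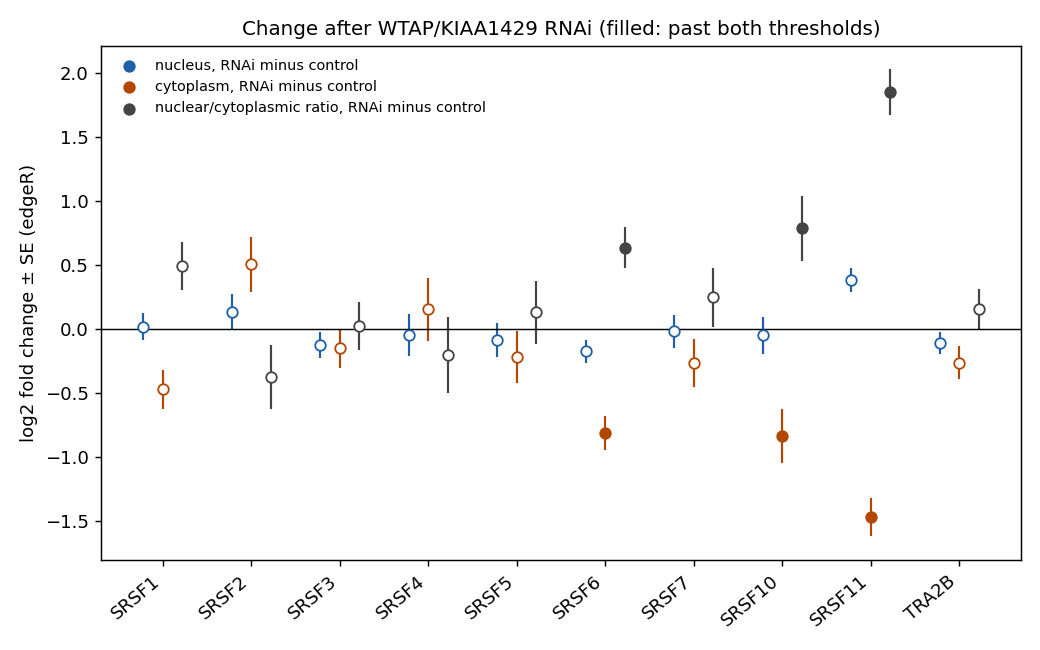
Log2 fold change after WTAP/KIAA1429 RNAi (vertical axis, with the SE as bars) for each gene in the nucleus, in the cytoplasm and for the nuclear/cytoplasmic ratio; filled points passed both thresholds. Filled points occur for SRSF6, SRSF10 and SRSF11, in the cytoplasm and in the ratio.

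The members differed among themselves in where their RNA, summed over all transcripts of the gene, was found. In control cells 2 of 10 were higher in the nucleus and 3 lower, against 28.0% and 22.7% of all genes. In RNAi cells 3 were higher in the nucleus and 1 lower, against 32.9% and 24.9% of all genes. The split in RNAi cells depended on the settings: it was 2 higher and 4 lower with no filter on low counts, where the median of all genes moved from 0.04 to 0.68, 3 and 2 with a length offset, and 3 and 0 on log2 TPM.

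SRSF5, an insulin-inducible and delayed-early factor, had a higher summed level in the nucleus in both conditions. It had 73.8 to 108 CPM in control nuclei and 43.9 CPM in the control cytoplasm, and 78.6 to 92.8 CPM against 36.0 and 39.6 CPM after RNAi. The nucleus held 2.07 times the cytoplasmic level in control cells (log2 1.05, SE 0.20, edgeR FDR 0.00201) and 2.27 times in RNAi cells (log2 1.18, SE 0.16, edgeR FDR 0.000132). On log2 TPM with 1 added the control difference was 0.60 and was not called (limma FDR 0.139). Protein-coding SRSF5 transcripts went the other way, at 19.3 TPM in the control cytoplasm and 7.54 to 11.6 TPM in control nuclei. After RNAi they were at 18.3 and 14.7 TPM in the cytoplasm and 6.20 to 8.17 TPM in nuclei. This class was not tested by itself. The summed SRSF11 level in the nucleus went from 2.08 times the cytoplasmic level (log2 1.06, SE 0.14, edgeR FDR 0.000278) to 7.52 times (log2 2.91, SE 0.13, edgeR FDR 4.01e-07). Its protein-coding transcripts were lower in control nuclei, at 3.75 to 6.53 TPM, than in the control cytoplasm, at 11.9 TPM. After RNAi they were at 4.57 to 5.55 TPM in nuclei and 3.60 and 1.84 TPM in the cytoplasm. SRSF6 went from near equality in control cells (log2 -0.05, SE 0.13, edgeR FDR 0.769) to 1.5 times in RNAi cells (log2 0.59, SE 0.10, edgeR FDR 0.000815), a value that ran from 0.49 with no filter, under the fold limit, to 0.99 over the alternatives.

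SRSF1, SRSF3 and SRSF10 were lower in the nucleus of control cells. SRSF1 had 0.534 times the cytoplasmic level there (log2 -0.91, SE 0.14, edgeR FDR 0.000625) and SRSF10 had 0.429 times (log2 -1.22, SE 0.19, edgeR FDR 0.000625). SRSF3, which shuttles between nucleus and cytoplasm and binds the export receptor NXF1, was at 301 CPM in the control cytoplasm and 276 and 267 CPM in the RNAi cytoplasm, against 156 to 183 CPM in control nuclei and 136 to 172 CPM in RNAi nuclei. Its log2 difference between nucleus and cytoplasm was -0.82 (SE 0.14, edgeR FDR 0.00107) in control cells and -0.79 (SE 0.12, edgeR FDR 0.000217) in RNAi cells. With a length offset it was -0.31 in control and -0.24 in RNAi cells (edgeR FDR 0.0843 and 0.0769), within the fold limit and so not called. On log2 TPM with 1 added it was -0.21 in control cells and 0.19 in RNAi cells, where the median of all genes was 0.09 and 0.32. The coding SRSF3-202 is 4222 nucleotides long and the poison isoform SRSF3-203 is 1095, and the part of this length difference in the counts was not tested.

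The remaining genes, SRSF2, SRSF4, SRSF7 and TRA2B, were not called in either comparison of the fractions, though some were under other settings. SRSF4, an SR protein with a long arginine and serine domain, lay between 94.2 and 165 CPM in all 9 libraries. SRSF7, which also binds NXF1, lay between 54.6 and 90.4 CPM. TRA2B, a sequence-specific activator of exon inclusion, lay between 54.1 and 70.0 CPM. Its log2 difference between nucleus and cytoplasm was -0.20 in control and -0.05 in RNAi cells (edgeR FDR 0.182 and 0.686), but with a length offset it was -0.92 and -0.62 and was called in both (edgeR FDR 0.000722 and 0.00118). On log2 TPM with 1 added the TRA2B difference in control cells was -0.80 (limma FDR 0.026). SRSF7 was called lower in control nuclei in 3 alternatives (-0.57 to -0.61) and SRSF2 in RNAi nuclei in 2 (-0.56 and -0.73). The library with the highest SRSF7 and TRA2B level was in each case the single control cytoplasm.

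Retained-intron transcripts held a larger share in the nuclear than in the cytoplasmic libraries. Summed over the 10 genes, retained-intron transcripts held 6.37 to 6.98% of the TPM in control nuclei and 5.87 to 6.32% in RNAi nuclei, but 0.646% in the control cytoplasm and 0.147 and 0.385% in the RNAi cytoplasm. All 6 nuclear libraries lay far above the 3 cytoplasmic ones. Over all protein-coding genes the same share was 5.95 to 8.39% in nuclei and 5.42 to 6.44% in the cytoplasm.

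**Figure D3:**
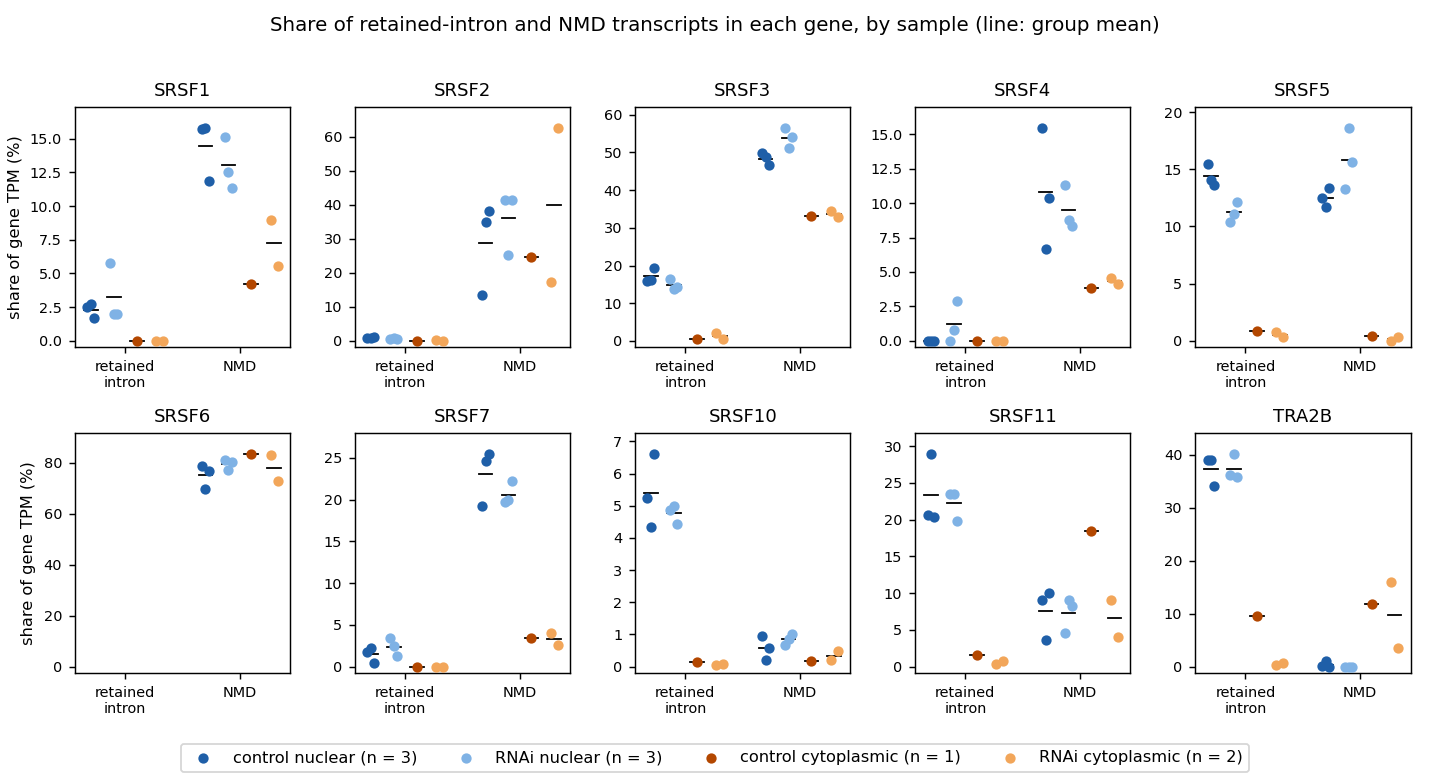
Share of each gene's TPM held by retained-intron and NMD transcripts (vertical axes in percent, each with its own scale) in every library, with lines for group means. Retained-intron shares are near 0 in the cytoplasm, except for TRA2B in the control library at 9.55%, and SRSF6 is mostly of the NMD class in all libraries.

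Tested as the ratio of retained-intron to coding TPM (with 0.5 TPM added to each), 6 of the 10 members had enough counts in both classes: SRSF2, SRSF3, SRSF5, SRSF10, SRSF11 and TRA2B. All 6 that were tested were higher in the nucleus, in control cells with log2 differences of 2.23 to 4.97 and in RNAi cells of 1.19 to 5.04. Over the 3687 genes tested, 51.3% were higher in control and 63.1% in RNAi cells, so a higher ratio was the common state of genes. The median difference was 4.41 over the 6 members against 1.15 over all genes in control cells, and 3.91 against 1.36 in RNAi cells. The filter on mean counts ran over all 9 libraries, so a gene could pass through its nuclear counts alone. SRSF10 had 16.3, 3.2 and 2.2 retained-intron counts in the cytoplasm against 96.8 to 217 in nuclei. The filter thus favours genes with a higher nuclear ratio, among the members, all genes and the further lists below. The count of 6 of 6 is therefore a description only. SRSF1, SRSF4 and SRSF7 had too few counts for the test. SRSF1-202 and SRSF7-211 were at 0 in all 3 cytoplasmic libraries, which allows up to 3 counts (0.19 to 0.272 CPM, counting error only). In nuclei SRSF1-202 had 5.8 to 29.5 estimated counts (1.06 to 3.96 TPM). SRSF7-211 had 1.4 to 14.9 there (0.252 to 2.03 TPM), so its lowest nuclear library lay within that limit of 3 counts.

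With 0.5 TPM added, SRSF3 had the largest difference in control cells, though over the alternatives SRSF5 (4.74 to 5.49) overlapped its range of 4.64 to 5.66. The SRSF3 retained-intron transcript held 0.545% of the gene's TPM in the control cytoplasm and 15.8, 16.1 and 19.4% in control nuclei (log2 difference of the ratio 4.97, SE 0.47, limma FDR 7.33e-05). After RNAi it held 2.03 and 0.479% in the cytoplasm and 16.4, 13.8 and 14.2% in the nucleus (log2 4.11, SE 0.37, limma FDR 1.9e-05). Nuclear and cytoplasmic libraries were widely separated in both conditions, and control and RNAi nuclei overlapped.

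With 0.5 TPM added, SRSF5 had the largest difference in RNAi cells, though over the alternatives TRA2B (4.70 to 6.14) overlapped its range of 4.55 to 6.11. The SRSF5 retained-intron share was 0.782 and 0.309% in the RNAi cytoplasm against 10.4, 11.1 and 12.2% in RNAi nuclei (log2 5.04, SE 0.32, limma FDR 3.85e-06), and 0.834% against 13.6 to 15.4% in control cells (log2 4.85, SE 0.40, limma FDR 4.18e-05). The nuclear shares after RNAi all lay below those of control nuclei, but the ratio to coding transcripts did not differ beyond its error (log2 -0.06, SE 0.28, limma FDR 0.947).

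In SRSF11 the retained-intron transcript SRSF11-214 rested on 25 estimated counts in the control cytoplasm and on 1.8 and 3.9 in the RNAi cytoplasm, against 366 to 513 in control nuclei and 548 to 696 in RNAi nuclei. Its share was 20.4 to 28.9% in control nuclei and 19.9 to 23.5% in RNAi nuclei, so the share overlapped although the gene's nuclear level did not. SRSF10-213, the main retained-intron transcript of SRSF10, held 3.82 to 5.93% of the gene's TPM in control nuclei and 4.10 to 4.88% in RNAi nuclei, and at most 0.135% in the cytoplasm.

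After RNAi the retained-intron ratio in the nucleus did not pass the test for any of the 6 members (limma, 0 called, 0 with an unadjusted p under 0.05), where 0.0271% of all genes were called. In the cytoplasm 1 of 6 was lower, against 0.651% of all genes, and the nuclear/cytoplasmic difference of the ratio was higher for 1, against 0.325% of all genes called higher. Both were TRA2B. In the cytoplasm 4 of the 6 differences were above 0, and the median was 0.78 against -0.08 over all genes. Of the 3 with an unadjusted p under 0.05, SRSF2 and SRSF11 had positive differences of 0.99 and 1.35 (limma FDR 0.3 and 0.291). The SRSF11 value depends on the 0.5 TPM added: its retained-intron TPM was 0.371 in the control cytoplasm and 0.031 and 0.0788 after RNAi. Its share of the gene fell from 1.57% to 0.305 and 0.803%. The SRSF10 difference, also above 0, depends on it too, and the SRSF10 share fell from 0.135% to 0.0554 and 0.0687%. The SRSF2 share rose from 0.0796% to 0.313 and 0.0856%, and SRSF3 went from 0.545% to 2.03 and 0.479%. The TRA2B retained-intron share was 9.55% in the control cytoplasm and 0.307 and 0.744% in the RNAi cytoplasm, with 34.1 to 39.1% in control nuclei and 35.7 to 40.1% in RNAi nuclei. The cytoplasmic ratio fell by 2.69 on the log2 scale (SE 0.36, limma FDR 0.0292) and the change of the nuclear/cytoplasmic difference was 2.66 (SE 0.44, limma FDR 0.0757). The value rested on 1 short transcript in 1 library: TRA2B-210, of 530 nucleotides, held 4.28 of the 5.23 TPM in the control cytoplasm and at most 1e-05 TPM in the RNAi cytoplasm. With estimated CPM in place of TPM the fall was 1.42 on the log2 scale, with a limma FDR of 0.135, and over all alternatives the FDR ran from 0.00678 to 0.135. The call on the change of the difference was lost in 4 alternatives and, when 1 library was left out, in 7 of 8 cases (FDR from 0.0219 to 0.263 over all alternatives).

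The NMD class behaved less evenly. Summed over the 10 genes it held 16.9% of the TPM in the control cytoplasm, 15.3 and 34.7% in the RNAi cytoplasm, 18.8 to 27.7% in control nuclei and 23.8 to 30.0% in RNAi nuclei, against 2.46 to 3.36% over all protein-coding genes. SRSF2 differed most between the 2 cytoplasmic RNAi libraries, with NMD shares of 17.4 and 62.5%, and its control nuclei ranged from 13.6 to 38.2%. The coding SRSF2-207 was at 157 and 0 TPM in these 2 libraries, so the deposited split between SRSF2 transcripts was not stable within a group.

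Of the 9 members with enough counts for the ratio of NMD to coding TPM, 4 were higher in the nucleus of control cells (SRSF1, SRSF3, SRSF5 and SRSF7), against 5.98% of the 2173 genes tested. In RNAi cells 3 were higher (SRSF3, SRSF5 and SRSF7) and 1 was lower (TRA2B), against 15.5% higher and 3.31% lower over all genes. The median difference was 1.38 over the members and 0.12 over all genes in control cells, and 1.08 against 0.22 in RNAi cells. SRSF10 had too few NMD counts to be tested. SRSF5 and TRA2B passed the filter, a mean over all 9 libraries, only through the fraction where they were high. SRSF5 had 9.3, 0 and 3.7 NMD counts in the cytoplasm against 311 to 453 in nuclei. TRA2B had 172, 152 and 21.8 in the cytoplasm and at most 7.5 in nuclei. The filter thus favoured the direction of their calls.

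The poison isoform of SRSF3 held 33.2% of the gene's TPM in the control cytoplasm and 49.8, 48.7 and 46.6% in control nuclei. After RNAi it held 34.6 and 32.9% in the cytoplasm and 56.4, 51.2 and 54.2% in the nucleus. The 2 fractions did not overlap, and the NMD to coding ratio was higher in the nucleus by 1.46 (SE 0.36, limma FDR 0.0695) in control cells and by 1.71 (SE 0.28, limma FDR 0.00728) in RNAi cells. All 3 RNAi nuclei had a higher poison share than the control nuclei, and the ratio did not pass the test between them (log2 0.30, SE 0.25, limma FDR 0.72). The coding isoform had 62.5 TPM in the control cytoplasm and 23.5 to 33.9 TPM in control nuclei. The control call for SRSF3 was lost without any 1 of control nucleus 1 (FDR 0.111), 2 (FDR 0.113) or 3 (FDR 0.14) or RNAi nucleus 3 (FDR 0.112).

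SRSF5-211 and SRSF7-208, whose stops lie in long forms of coding exons, were higher in TPM in each nuclear library than in any cytoplasmic one. Reads in the added part of these exons, which are 1030 and 1127 nucleotides long, cannot tell the NMD isoform from unspliced precursor RNA. The part of such precursor in the values below was not tested. SRSF5-211 is the whole of the measured SRSF5 NMD class, whose share was 0.391% in the control cytoplasm, 0 and 0.326% in the RNAi cytoplasm, 11.7 to 13.3% in control nuclei and 13.3 to 18.6% in RNAi nuclei. The ratio to coding transcripts was higher in the nucleus by 5.15 on the log2 scale in control cells (SE 0.48, limma FDR 0.00386) and by 5.97 in RNAi cells (SE 0.38, limma FDR 0.000395). These sizes depend on the 0.5 TPM added. The class was at 0.285 TPM in the control cytoplasm and at 0 and 0.157 TPM in the RNAi cytoplasm. Over the alternatives the differences ran from 4.96 to 6.17 in control cells and from 5.62 to 7.82 in RNAi cells. SRSF7-208 had 0 estimated counts in the control cytoplasm and 1.12 and 0.622 TPM in the RNAi cytoplasm, against 6.45 to 14.1 TPM in control nuclei and 7.90 to 8.37 TPM in RNAi nuclei. For the whole SRSF7 NMD class, which holds further transcripts, the share was 3.37% in the control cytoplasm, 3.99 and 2.58% in the RNAi cytoplasm, 19.3 to 25.5% in control nuclei and 19.7 to 22.2% in RNAi nuclei. The class differences of the ratio were 2.94 (SE 0.41, limma FDR 0.0115) and 2.71 (SE 0.33, limma FDR 0.00198).

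SRSF1 NMD transcripts held 4.24% in the control cytoplasm and 11.8 to 15.8% in control nuclei, a log2 difference of the ratio of 1.89 (SE 0.46, limma FDR 0.0702) that did not hold without any 1 of the 3 control nuclear libraries or of RNAi nuclei 2 and 3 (FDR 0.102 to 0.121). In RNAi cells the shares were 8.97 and 5.55% in the cytoplasm and 11.3 to 15.1% in the nucleus (log2 0.94, SE 0.36, limma FDR 0.138). SRSF4 NMD shares were 3.84 to 4.57% in the cytoplasm and 6.65 to 15.4% in the nucleus, and the ratio was not called.

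TRA2B went the other way. TRA2B-205, which holds the poison exon, had 6.53 TPM in the control cytoplasm and 6.61 and 1.14 TPM in the RNAi cytoplasm, but 0.0504, 0.374 and 0 TPM in control nuclei and 0 TPM in all 3 RNAi nuclei. A count of 0 in the RNAi nuclei allows up to 0.209 to 0.303 CPM (counting error only). The RNAi cytoplasmic libraries had 10.8 and 1.98 CPM. Against the highest of these limits their mean was 21-fold higher, and the lower of the 2 libraries 6.52-fold higher. The limit leaves out error in how reads were divided among the transcripts of the gene, so these folds are not lower bounds. The fitted log2 difference of the ratio, -2.08 in RNAi cells (SE 0.55, limma FDR 0.0409), depends on the 0.5 TPM added. In control cells it was -2.35 (SE 0.69, limma FDR 0.109). Without RNAi cytoplasm 1 the RNAi difference was -1.09 and was not called (limma FDR 0.18), and without RNAi nucleus 3 it was -2.03 (limma FDR 0.104).

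SRSF6 stood out by its level: the poison isoform SRSF6-202 held 83.5% of the gene's TPM in the control cytoplasm, 83.1 and 72.7% in the RNAi cytoplasm, 69.7 to 78.7% in control nuclei and 77.2 to 81.2% in RNAi nuclei. All 9 libraries had more of it than of the coding isoform, and the fractions overlapped. The split is that of the deposited estimates, in which the coding SRSF6-201 is 3683 and SRSF6-202 is 1680 nucleotides long.

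**Figure D4:**
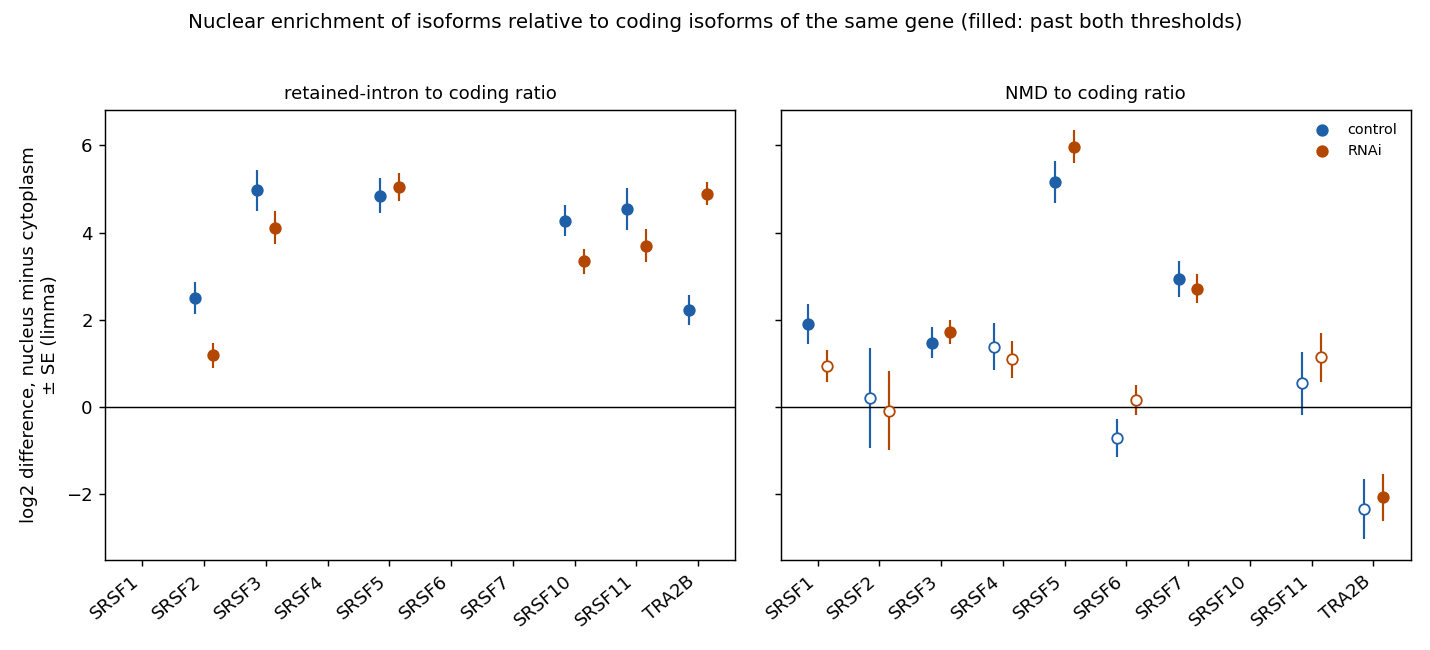
Log2 difference between nucleus and cytoplasm of the retained-intron to coding ratio (left) and of the NMD to coding ratio (right) for each gene tested, in control and RNAi cells, with the SE as bars; filled points passed both thresholds. The retained-intron differences lie between 1.19 and 5.04, and the NMD differences reach from -2.35 for TRA2B to 5.97 for SRSF5.

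WTAP/KIAA1429 RNAi changed no NMD to coding ratio past the thresholds. The count was 0 of 9 members in the nucleus, in the cytoplasm and for the nuclear/cytoplasmic difference, and also 0% of all 2173 genes (limma), with 0 members and 190, 169 and 138 of all genes at an unadjusted p under 0.05 in the 3 comparisons. The members' log2 differences ranged from -0.40 to 0.60 in the nucleus and from -0.67 to 0.85 in the cytoplasm, with SEs up to 1.23. Each of these differences was within 2 of its SEs.

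Other genes of the same machinery were taken from 2 lists. The first held 38 further SR, SR-related and SR-regulating genes, including the CLK and SRPK kinases that phosphorylate SR proteins and TNPO3, which imports them. After RNAi 1 of these was higher and 14 were lower in the cytoplasm (median log2 fold change -0.38), against 10.4% and 14.2% of all genes. In the nucleus 5 were higher and 0 lower, against 2.47% and 2.42%. The nuclear/cytoplasmic ratio rose for 14 and fell for 0 (median 0.43), against 10.4% and 7.87%. NKTR, an SR-related cyclophilin, fell by 2.15 on the log2 scale in the cytoplasm (edgeR FDR 0.000944) and rose by 0.81 in the nucleus (edgeR FDR 0.0172). SREK1 and LUC7L3, both SR-related splicing regulators, fell by 1.99 and 1.91 in the cytoplasm (edgeR FDR 0.00121 and 0.00154). Between the fractions 17 were higher and 8 lower in the nucleus of control cells, against 28.0% and 22.7% of all genes, and 22 and 5 in RNAi cells, against 32.9% and 24.9%. For the retained-intron ratio 19 of 23 tested were higher in the nucleus of control cells, against 51.3% of all genes, and 20 were higher and 1 lower in RNAi cells, against 63.1% and 1.93%. After RNAi 2 of these ratios were higher in the cytoplasm, against 0.434%, and the nuclear/cytoplasmic difference rose for 1 and fell for 1, against 0.325% and 0.108%. For the NMD ratio 3 of 15 tested were higher in the nucleus of control cells, against 5.98%, and 6 were higher and 1 lower in RNAi cells, against 15.5% and 3.31%; after RNAi 0 were called, as over all genes.

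The second list held 10 NMD factors, whose own levels bear on how poison isoforms are read. In the cytoplasm UPF2, which joins UPF1 to the exon junction complex, fell by 1.85 on the log2 scale after RNAi (edgeR FDR 0.00491), UPF3B fell by 1.56 (edgeR FDR 0.00588) and SMG1, the kinase of UPF1, fell by 1.46 (edgeR FDR 0.057). UPF3A fell as well, by 0.91 (edgeR FDR 0.057), so that 4 of 10 were lower and 2 were higher, against 14.2% and 10.4% of all genes. In the nucleus 1 was higher, SMG8, by 0.55 (edgeR FDR 0.0295), against 2.47%. The nuclear/cytoplasmic ratio rose for 3 and fell for 2, against 10.4% and 7.87%. Between the fractions 1 was higher and 2 lower in the nucleus of control cells, against 28.0% and 22.7%, and 3 and 2 in RNAi cells, against 32.9% and 24.9%. Of the 5 with a retained-intron ratio, 2 in control and 4 in RNAi cells were higher in the nucleus, against 51.3% and 63.1%. The part of the lower NMD factor mRNAs in the members' isoform levels was not tested.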

How the data were processed

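Libraries were made with the Lexogen SENSE mRNA kit. Leading bases of each read were cut off with cutadapt, as the kit's manual advises, and Salmon was used by the authors to quantify Ensembl v75 transcripts (hg19). The deposited tables give estimated counts and TPM per transcript. Transcripts were assigned genes and classes from GENCODE v44 mapped to GRCh37: 85.1% of 215170 matched, and 94 of the 108 member transcripts, with 71.8% of their TPM, had the same length in both. Unmatched transcripts were left out. The matched ones held 83.1 to 84.7% of the counts in cytoplasmic libraries and 85.1 to 88.3% in nuclear libraries. Estimated counts were summed per gene, rounded and fitted over 16181 genes (at least 10 in at least 3 samples) with edgeR 4.0.16 (TMM, quasi-likelihood, 4 groups, 9 libraries). Ratios of class TPM were fitted with limma 3.58.1, for genes with a mean of at least 10 counts in each class. FDR is the Benjamini-Hochberg adjusted p over all genes tested. DESeq2 1.42.0 served as an alternative. Scripts were tested on simulated data. All 10 members were fitted in every gene-level comparison, though not each value is printed. The transcripts named are the most abundant of their class in a member, except TRA2B-210, and not all of these are named. From the 2 further lists, the genes named are among the 4 largest called changes. Members and lists were chosen with earlier results of these data known.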

Additional observations from a re-analysis of the deposited data

Results flagged for a closer look

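The effect of WTAP/KIAA1429 RNAi differed between nucleus and cytoplasm, by the test of that difference in the fit over all genes, for 15 of the results named here. Each value below is the change of the nuclear/cytoplasmic log2 difference after RNAi. All rest on the single control cytoplasmic library. Among the members it was 1.85 for SRSF11, 0.79 for SRSF10 and 0.64 for SRSF6 (edgeR FDR 0.000831, 0.0715 and 0.0336). For the retained-intron ratio it was 2.66 for TRA2B, 2.90 for LUC7L2 and -2.59 for LUC7L (limma FDR 0.0757, 0.0916 and 0.0916). Among the SR-related genes it was 2.95 for NKTR, 2.68 for SREK1, 2.23 for BCLAF1 and 2.15 for SCAF11 (edgeR FDR 0.000831, 0.00124, 0.0026 and 0.0127). Among the NMD factors it was 2.34 for UPF2, 1.88 for UPF3B, 1.81 for SMG1 and -0.58 for SMG9 (edgeR FDR 0.00733, 0.0102, 0.0723 and 0.0522). For WTAP, a target of the siRNAs, it was 0.89 (edgeR FDR 0.0326): the fall was larger in the cytoplasm than in the nucleus.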

How the results depend on the processing

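Total counts of called members, both directions together, stayed within 1.5 times the reported count except as follows; for the fractions of RNAi cells the split of 3 higher and 1 lower became 2 and 4 with no filter, 3 and 2 with a length offset and 3 and 0 on log2 TPM. For the retained-intron ratio in the cytoplasm the count was 0 with estimated CPM in place of TPM. For the change of its nuclear/cytoplasmic difference it was 0 at an FDR under 0.05, with the filter at a mean of 1 count, with estimated CPM and with the replicate block, and 0 to 1 when 1 library was left out. For the NMD ratio between the fractions of control cells it was 2 at an FDR under 0.05 and with the replicate block, and 2 to 5 when 1 library was left out. Cause was not tested. On log2 TPM with either pseudocount SRSF3, SRSF2 and SRSF1 changed sign between nucleus and cytoplasm of RNAi cells, to 0.19, 0.01 and 0.09, and SRSF2 turned to 0.24 for the ratio change; the same settings moved the median of all genes to 0.32 and 0.46 between these fractions and to 0.21 and 0.30 for the ratio change. Scaling by library size only turned TRA2B to 0.23 between the fractions of RNAi cells, where it moved the median to 0.30. Of 789 values of 51 results in alternatives, 706 kept direction and call, 39 lost the call, 35 gained it and 9 changed sign. A further 74 results were never called, and 79 of their 1120 values changed sign. SRSF1 was called lower in the cytoplasm in 8 alternatives. Using the replicate number as a block gave 4 gene-level calls in the cytoplasm, the 3 lower members and SRSF2 as higher (log2 0.63). It gave 3 for the ratio change. Over all genes the block raised the calls from 3983 to 4719 in the cytoplasm and from 2953 to 4038 for the ratio change. Same-numbered control and RNAi nuclei correlated at 0.185, 0.11 and 0.042, and differently numbered ones at -0.172 to 0.056. Each control nucleus correlated most with the RNAi nucleus of its own number. These weak correlations do not settle whether the numbers pair the libraries, and the reported fits used no block. Using nuclear samples only, an alternative chosen after seeing the data, 0 members were called. The single control cytoplasmic library could not be left out, and it limits every cytoplasmic comparison.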

Other observations

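Several members gave much of their signal to transcripts with no defined coding sequence. For SRSF5 these held 72.3% of the gene's TPM in the control cytoplasm, 68.5 and 68.8% in the RNAi cytoplasm, 59.5 to 66.7% in control nuclei and 61.9 to 70.6% in RNAi nuclei, nearly all of it in SRSF5-216, a transcript of 644 nucleotides covering the end of the gene. For SRSF10 the share was 3.68% in the control cytoplasm, 3.85 and 6.35% in the RNAi cytoplasm, and 19.3 to 21.9% in the 6 nuclear libraries, led by SRSF10-212, which covers the start of the gene. For SRSF11 it was 29.9% in the control cytoplasm and 55.2 and 76.4% in the RNAi cytoplasm, and 51.9 to 63.1% in nuclei. These shares were not tested.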
